A study of Mus musculus with 6 samples.

Results

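Hr encodes a nuclear corepressor of thyroid hormone receptors, named for the hairless mouse, and it is described here in the arcuate nucleus (ARC) of the hypothalamus together with 8 genes that supply thyroid hormone to cells, receive it or respond to it. The 9 genes are the transporter Slco1c1, the deiodinases Dio2 and Dio3, the hormone-binding protein Crym, the receptors Thra and Thrb, Hr, and the responsive genes Klf9 and Thrsp, out of 22322 genes in the deposited table. Hr was chosen by its difference between the diets: in an earlier analysis of these same samples it was the 1 gene of 14188 tested that was higher on the high-fat diet past an adjusted p of 0.05. Its diet values are therefore given as a description without a test. The call of Hr was kept in 10 of 15 alternative fits, and in 3 of the 6 with 1 sample left out. These fits reuse the samples by which Hr was chosen, so they describe how the call depends on processing and are no separate evidence for the difference. The other 8 genes were listed for their role in the hormone system.

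RNA-seq was performed on ARC tissue cut from frozen brain sections by laser capture microdissection (LCM), with 3 samples from male mice on a normal-chow diet (NCD) and 3 from male mice on a high-fat diet (HFD). Feeding started at 4 weeks of age and lasted 16 weeks, and the diets held 16.5% fat and 60% fat, respectively. The sample titles use C and H, which were read as NCD and HFD. The methods give C57BL/6J wild-type mice for the study and show the cut area in a Kiss1-Cre; R26R-EYFP reporter cross, without saying whether the sequenced mice carried those alleles or whether a sample was 1 mouse, so the p-values below measure the spread between these samples, which may be technical. Total counts were 15925648, 9937632 and 6882449 in NCD samples 1 to 3 and 8024664, 10479778 and 5171381 in HFD samples 1 to 3. The 9 markers of ARC neurons that were looked at, Cartpt with the highest CPM, summed to 1300, 2283 and 1571 CPM, counts scaled to library size, in NCD and to 1946, 1825 and 2210 CPM in HFD. Pomc and Agrp had counts in every sample. Kiss1, the neuropeptide gene of the neurons that the study aimed at, had 0, 27 and 32 counts in NCD and 0, 21 and 42 in HFD. An overlapping annotated gene, Gm28040, had 70, 15 and 25 counts in NCD and 99, 39 and 37 in HFD. Kiss1 was thus without counts in sample 1 of each diet, the samples in which Gm28040 had most, and how the reads were divided between these overlapping genes was not tested.

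Thyroid hormone reaches the brain largely as the prohormone T4, which Slco1c1 carries across the blood-brain barrier and which Dio2, expressed in tanycytes and astrocytes, converts to the active hormone T3. In the hypothalamus T3 also feeds back on the neurons that make thyrotropin-releasing hormone. Inside the nucleus the receptors sit on DNA with retinoid X receptors and recruit corepressors or coactivators according to whether T3 is bound. Hr is one such corepressor, it also binds retinoic acid receptor-related orphan receptors and the vitamin D receptor, and in the developing brain it is itself a gene that T3 switches on.

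Hr was 3.95 times as abundant on HFD as on NCD, and no other gene of the 9 differed between the diets past an adjusted p of 0.05. Crym was the next in size, at about 1.87 times the NCD mean. Thra, Dio2 and Klf9 were each higher on HFD by a log2 fold change of 0.43 to 0.47 that lay within the spread of the samples, Thrsp by 0.20, and Slco1c1 and Thrb were lower by a similarly small amount. Dio3 was at or below the counting floor.

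**Figure D1:**
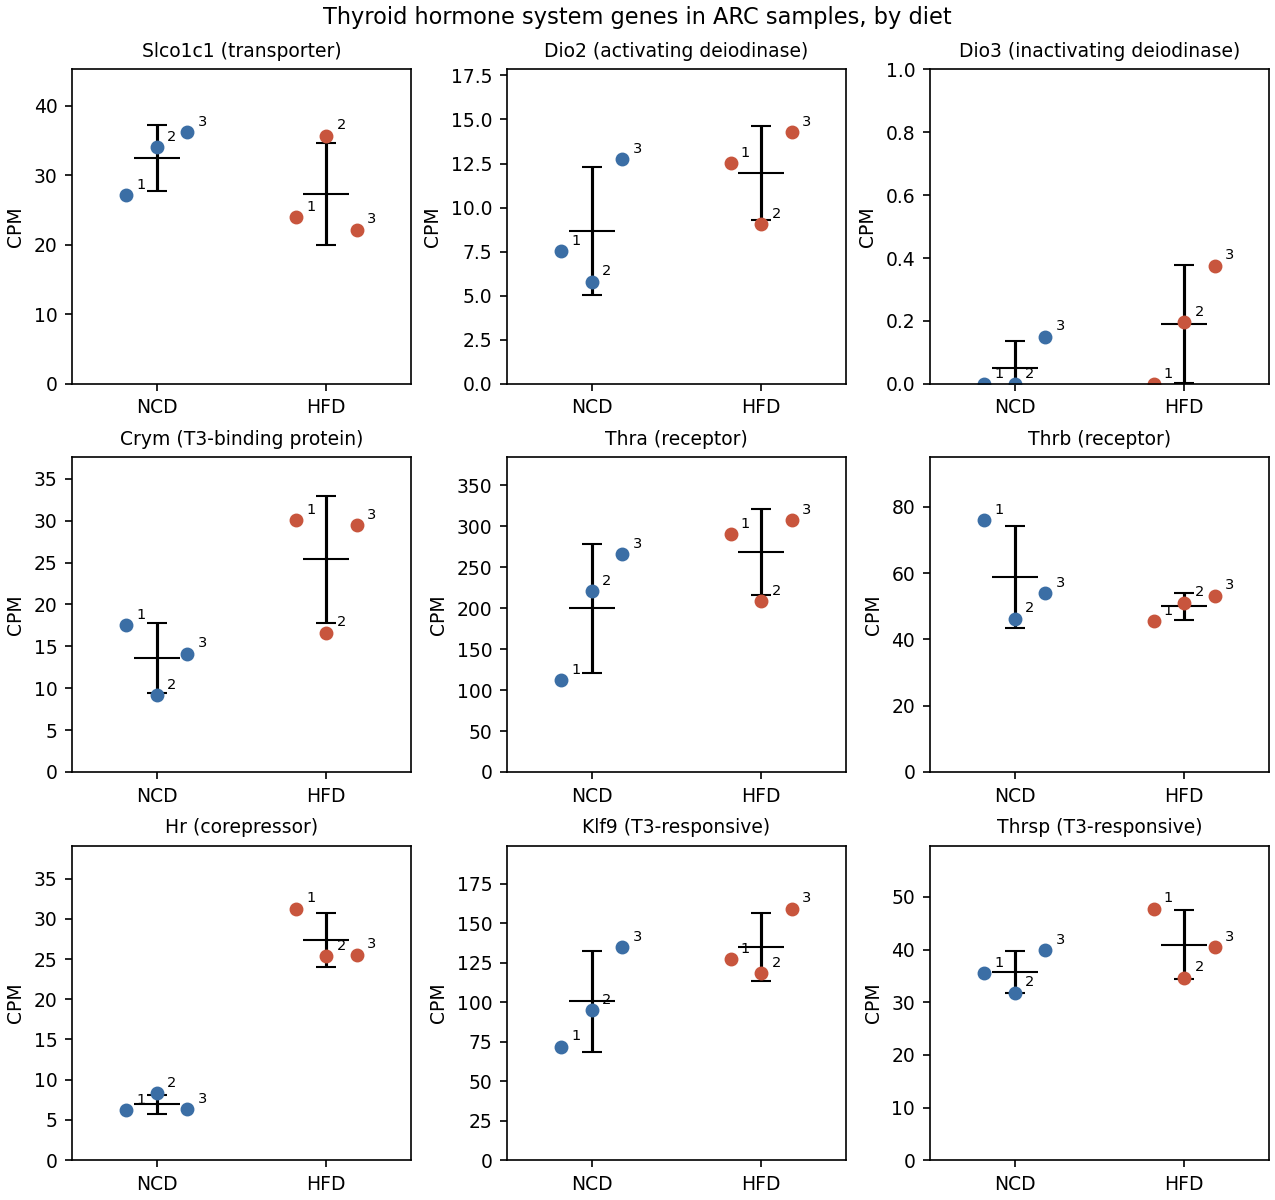
CPM of the 9 genes in each sample (points, numbered by replicate; blue NCD, red HFD; horizontal line the mean, bar the SD, n = 3 per diet; each panel has its own axis from 0). The HFD samples of Hr lie between 25.4 and 31.28 CPM, above the NCD samples at 6.194 to 8.337 CPM, while the diets overlap in the other 8 panels.

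Because genes differ in length, the levels of the 9 genes were set beside each other only as FPKM, the deposited values that take transcript length and mapped reads into account. Thra was the most abundant of the 9, with a mean of 97.6 FPKM over the 6 samples (49.3 to 131.2), more than 95.5% of the genes in the table. Thrsp followed with 30.1 FPKM (24.7 to 37.6), Klf9 with 26.2 (16.7 to 36.6), Crym with 14.2 (6.55 to 21.95), Thrb with 12.5 (8.34 to 17.41) and Slco1c1 with 10.7 (8.72 to 13.12). Hr stood seventh with 3.24 FPKM (1.16 to 5.91), Dio2 eighth with 1.78 (0.99 to 2.53) and Dio3 last with 0.065 (0 to 0.19). The ranges of neighbours in this order overlapped except between Thra and Thrsp, between Slco1c1 and Hr, and between Dio2 and Dio3. The transcript length behind the FPKM of Thrb differed between samples by up to 1.68 times. The place of Hr depended on the diet: its mean was 1.30 FPKM in NCD, below the 1.49 of Dio2, and 5.18 FPKM in HFD, above the 2.07 of Dio2. Averaged over the 6 samples, Hr and Dio2 were above 52.3% and 46.0% of the genes in the table.

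**Figure D2:**
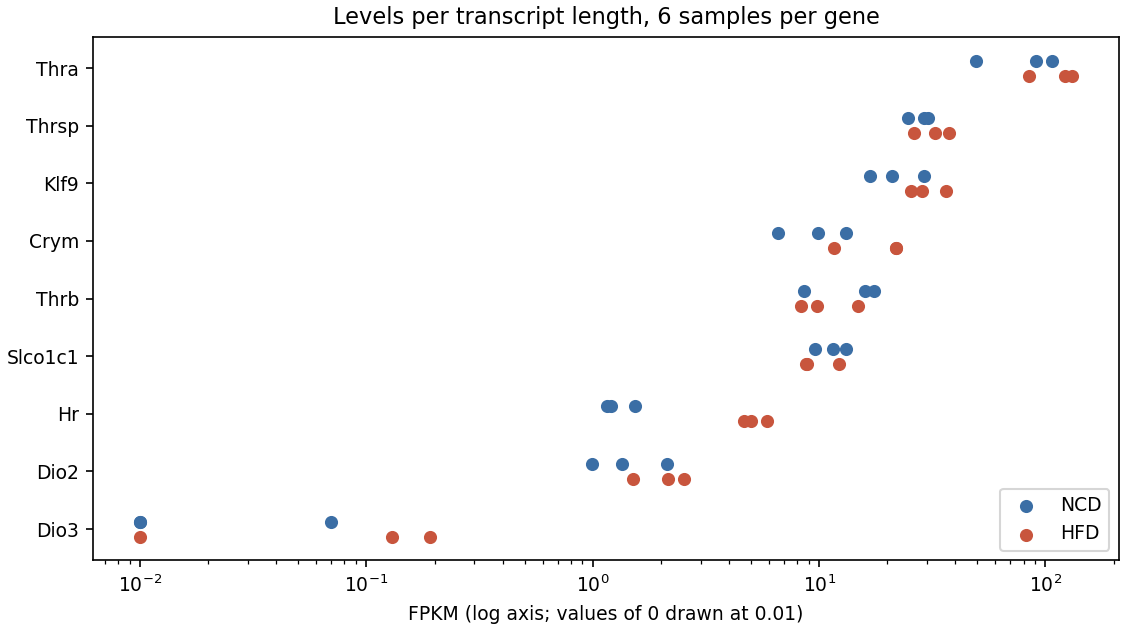
FPKM of the 9 genes on a log axis, 6 samples per gene (blue NCD, red HFD; values of 0 drawn at 0.01). Thra is above all other genes in every sample, and the HFD points of Hr, 4.65 to 5.91 FPKM, lie above its NCD points, 1.16 to 1.53 FPKM.

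The genes that bring the hormone into cells and set its amount were taken first. Slco1c1 (chr6:141524368-141570177, GRCm38) is the T4 transporter of brain capillaries, astrocytes and tanycytes. It had 27.2, 34.1 and 36.2 CPM in NCD and 24.0, 35.7 and 22.2 CPM in HFD. HFD samples 1 and 3 were below all NCD samples, but HFD sample 2 lay within the NCD range, and the log2 fold change of -0.24 (SE 0.24, adjusted p = 0.999, edgeR) was about the size of its error.

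Dio2 (chr12:90724552-90738438, minus strand) encodes the selenoenzyme that makes T3 from T4 inside cells. It had 7.52, 5.80 and 12.8 CPM in NCD and 12.5, 9.06 and 14.3 CPM in HFD. NCD sample 3 was slightly above HFD sample 1, so the diets overlapped. The log2 fold change was 0.47 (SE 0.34, adjusted p = 0.999), and it was 0.21 with library size as a covariate and 0.25 without NCD replicate 2. Of the 5815 exon bases of Dio2, 100 are shared with Gm26512, a noncoding gene on the opposite strand that was not in the deposited table. Dio2 is known to be raised by cAMP, and the 8 letters of the cAMP response element, TGACGTCA, are in its promoter. That window is shown because among the 7 promoter windows of 6 of the 9 genes it was the one that held this motif, which was present in 586 of 32544 RefSeq promoter windows of the same 300 bases (1.80%). The window spans 250 bases before to 50 after the start in RefSeq, chr12:90738989-90739288 of GRCm38.p6 on the minus strand. The motif, in capitals, begins 95 bases before that start. The whole window lies upstream of the gene coordinates given above, which are those of GENCODE M21.
Dio2 promoter: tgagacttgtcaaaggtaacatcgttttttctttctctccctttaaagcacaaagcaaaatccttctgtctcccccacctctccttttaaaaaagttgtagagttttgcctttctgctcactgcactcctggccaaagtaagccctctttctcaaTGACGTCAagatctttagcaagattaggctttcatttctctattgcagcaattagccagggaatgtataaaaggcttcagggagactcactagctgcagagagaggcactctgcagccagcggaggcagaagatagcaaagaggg

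Dio3 (chr12:110279068-110281097) encodes the enzyme that inactivates T4 and T3. It had 0, 0 and 1 counts in NCD and 0, 2 and 2 counts in HFD. No sample exceeded 3 counts, the floor used here, which corresponds to 0.188 CPM in the largest library and 0.58 CPM in the smallest, so a difference of Dio3 between the diets was not detectable at this depth. Dio1, which encodes the deiodinase of liver and kidney, had 0 counts in all 6 samples.

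Crym (chr7:120186380-120202111, minus strand) encodes mu-crystallin, which holds T3 in the cytosol and is also an enzyme. It had 17.5, 9.15 and 14.1 CPM in NCD and 30.04, 16.6 and 29.5 CPM in HFD. HFD samples 1 and 3 were above every NCD sample, and HFD sample 2 was just under NCD sample 1. The means were 13.6 ± 4.2 and 25.4 ± 7.59 CPM (SD, n = 3 each) and the log2 fold change was 0.89 (SE 0.30, unadjusted p = 0.0121, adjusted p = 0.999, edgeR), which did not pass adjustment over all genes. Of the 7 genes tested besides Hr, Crym alone had an unadjusted p under 0.05, whereas 2.30% of all genes tested did, 1.21% of them as higher and 1.09% as lower on HFD. None passed the adjusted threshold with edgeR, DESeq2 or limma, which 0.0564% of all genes did with edgeR. The median log2 fold change of the 7 was 0.43, from -0.24 for Slco1c1 to 0.89 for Crym, beside 0.0032 for all genes tested. None of the 7 had diets without overlap, against 6.47% of all genes.

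The receptors were measured next. Thra (chr11:98740638-98769006) encodes the receptor that predominates in brain. It had 112, 221 and 266 CPM in NCD and 290.5, 208.3 and 307.3 CPM in HFD. NCD sample 1, the library with the largest total, was far below the other 5 samples, and NCD samples 2 and 3 overlapped the HFD range. The log2 fold change was 0.43 (SE 0.30, adjusted p = 0.999) and fell to 0.13 without NCD replicate 1 and to 0.14 with the total count as a covariate. Of the 4614 exon bases of Thra, 263 are shared with Nr1d1 on the opposite strand, the gene of the circadian repressor REV-ERB alpha. Whether the counting used strand was not stated. Nr1d1 had 67.7, 82.0 and 59.2 CPM in NCD and 82.8, 76.3 and 70.3 CPM in HFD, a log2 fold change of 0.14 (SE 0.20, adjusted p = 0.999), so its levels overlapped between the diets.

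Thrb (chr14:17660261-18038090) encodes the receptor through which T3 restrains thyrotropin-releasing hormone and thyrotropin. It had 75.9, 46.3 and 54.0 CPM in NCD and 45.4, 51.1 and 53.2 CPM in HFD. The diets overlapped, and NCD sample 1 alone stood high. The log2 fold change was -0.24 (SE 0.22, adjusted p = 0.999) and came to -0.02 without NCD replicate 1. Of the windows of these genes, 1 of the 2 at Thrb starts (chr14:17660710-17661009, plus strand, GRCm38.p6) held AGGTCA, the hexamer that thyroid hormone receptors and related nuclear receptors bind. The hexamer was searched on both strands and does not overlap the cAMP response element; 16.2% of all promoter windows held it, and its direct repeat with a 4 base spacer was in 5 of the 32544 windows and in none of these 7. The window is shown with the hexamer, which begins 184 bases before the start in RefSeq, in capitals. The whole window lies within the GENCODE M21 coordinates of Thrb given above.
Thrb promoter: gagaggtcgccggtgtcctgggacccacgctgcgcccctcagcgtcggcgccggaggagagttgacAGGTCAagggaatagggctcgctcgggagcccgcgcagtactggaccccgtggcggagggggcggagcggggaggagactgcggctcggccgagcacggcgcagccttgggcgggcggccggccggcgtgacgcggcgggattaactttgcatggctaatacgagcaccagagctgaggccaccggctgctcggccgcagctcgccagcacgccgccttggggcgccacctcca

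Hr lies on the plus strand at chr14:70552212-70573548, with 6919 annotated exon bases and none shared with another gene. It had 6.19, 8.34 and 6.31 CPM in NCD and 31.3, 25.4 and 25.6 CPM in HFD. Every HFD sample was at least 3.05 times as high as every NCD sample. The ratio over the 9 sample pairs went up to 5.05, and the means were 6.95 ± 1.21 and 27.4 ± 3.35 CPM (SD, n = 3 each), 3.95 times apart, or 1.98 on the log2 scale (SE 0.25).

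These levels rest on few reads, 103, 82 and 42 counts in NCD and 252, 258 and 136 counts in HFD. The closest pair of samples, NCD 2 and HFD 2, had 8.25 CPM (exact Clopper-Pearson 95% interval 6.56 to 10.2) and 24.6 CPM (21.7 to 27.8) before TMM scaling. These intervals describe counting error alone, because PCR copies of a molecule could not be recognized. With library size as a covariate the log2 fold change of Hr was 1.97, and with 1 sample left out at a time it was between 1.87 and 2.13. In FPKM, Hr had 1.20, 1.53 and 1.16 in NCD and 5.91, 4.65 and 4.98 in HFD, which are the same reads on another scale.

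The genes around Hr lay between -0.44 and 0.46 on the log2 scale. Of 15 genes in the table within 250 kb, 10 were tested, and none had an adjusted p under 0.05 (edgeR, DESeq2 and limma). None had an unadjusted p under 0.05 with edgeR on all 6 samples and diet as the only term. With the total count as a covariate, without HFD replicate 3 and without NCD replicate 1, 1 neighbour had an unadjusted p under 0.05 in each edgeR fit. The median log2 fold change of the 10 was -0.05, with 5 higher and 5 lower on HFD. The closest, Reep4 on the side before its start and Nudt18 beyond its end, lay 3.28 kb and 4.09 kb away and had log2 fold changes of 0.11 (SE 0.47) and 0.33 (SE 0.21). Nudt18, a hydrolase of oxidized nucleotides, had 39.8, 56.8 and 52.3 CPM in NCD and 62.7, 67.4 and 56.0 CPM in HFD, so the diets overlapped. The others tested were Slc39a14 (0.46), Bmp1 (0.10), Fam160b2 (0.09), Dmtn (-0.20), Lgi3 (-0.25), Xpo7 (-0.27), Phyhip (-0.28) and Polr3d (-0.44), where each value is a log2 fold change. Polr3d, a subunit of RNA polymerase III, was the 1 neighbour whose diets did not overlap, and it was lower on HFD, beside 6.47% of all genes without overlap.

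**Figure D3:**
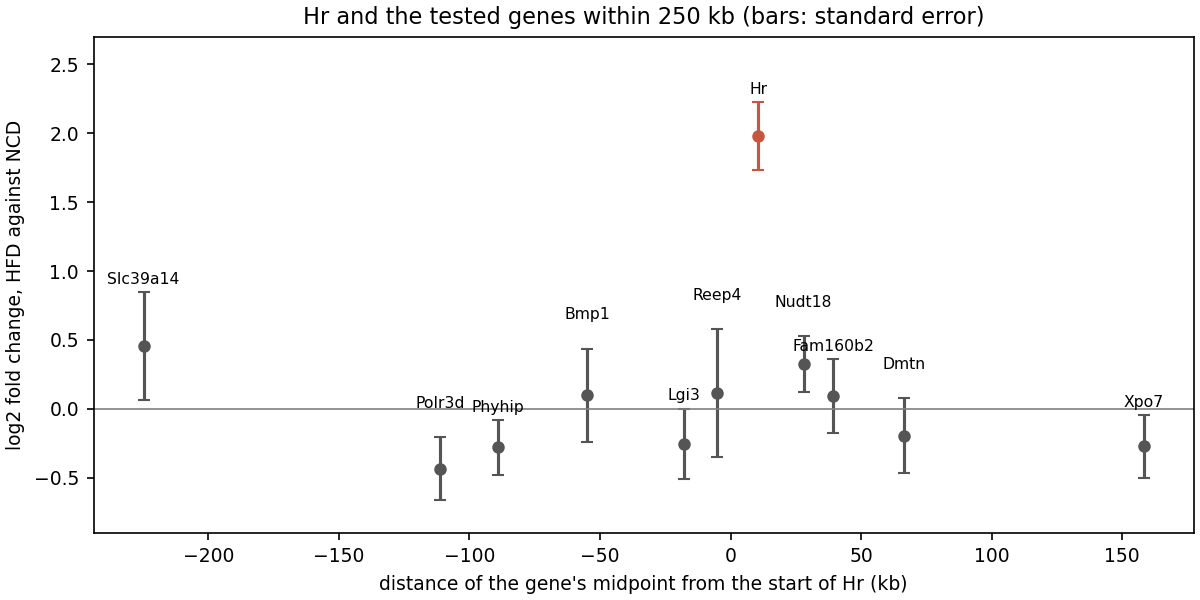
Log2 fold change (HFD against NCD, points; bars the standard error) of Hr and of the 10 tested genes within 250 kb, against the distance of each gene's midpoint from the start of Hr in kb. Hr stands at 1.98, and its neighbours lie between -0.44 and 0.46.

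Hr was also set against all genes tested by Pearson's r of log2 CPM over the 6 samples, which share their libraries and fall into 2 diets, so r mostly ranks genes by how evenly they separate the diets. The highest were S1pr4 (r = 0.990), Hacd2 (0.988), Tmsb15l (0.987), Ltc4s (0.984) and Ifi30 (0.982). Hacd2, which encodes a dehydratase of very long chain fatty acid synthesis, had 68.3, 70.9 and 67.9 CPM in NCD and 99.3, 91.4 and 88.0 CPM in HFD, a log2 fold change of 0.43. S1pr4, a lymphoid sphingosine 1-phosphate receptor, had no more than 14 counts in any sample. The log2 fold changes of Tmsb15l, Ltc4s and Ifi30 were 0.85, 0.90 and 0.83. Among the hormone system, Crym ranked highest by this measure (r = 0.709, rank 507), followed by Klf9 (0.599), Thra (0.559), Thrsp (0.503) and Dio2 (0.485), while Slco1c1 (-0.483) and Thrb (-0.532) were negative.

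Klf9 and Thrsp stand for the responsive end. Klf9 (chr19:23141226-23168134) encodes a Krüppel-like transcription factor that both T3 and glucocorticoids raise in neurons. It had 71.9, 94.96 and 135.1 CPM in NCD and 127.5, 118.4 and 159.4 CPM in HFD. NCD samples 1 and 2 were below all HFD samples, and NCD sample 3 was within the HFD range. The log2 fold change was 0.43 (SE 0.25, adjusted p = 0.999), and it was 0.19 with the total count as a covariate and 0.22 without NCD replicate 1. Thrsp (chr7:97412938-97417730, minus strand), known as Spot 14, is tied to fatty acid synthesis and raised by T3 in liver. It had 35.5, 31.8 and 39.8 CPM in NCD and 47.8, 34.7 and 40.4 CPM in HFD. HFD samples 1 and 3 were above the NCD samples and HFD sample 2 was among them, with a log2 fold change of 0.20 (SE 0.21, adjusted p = 0.999).

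A further 61 genes of the system, in 6 lists, were read from the same fit. All were in the table, 55 passed the filter on low counts, and none had an adjusted p under 0.05 with edgeR, DESeq2 or limma. An unadjusted p under 0.05 was found for 5 (9.09%, against the 2.30% of all genes), 4 higher and 1 lower on HFD, and 6 had diets without overlap (10.9%, against 6.47%). Their median log2 fold change was 0.04, with 32 higher and 23 lower. The 8 other transporters and binders had a median of -0.07, with no unadjusted p under 0.05, and the sign of that median turned without NCD replicate 1 (0.16), without NCD replicate 2 (0.07) and with library size as a covariate (0.15). Slc3a2, the heavy chain of amino acid transporters that also carry thyroid hormone, had the highest CPM of them and a log2 fold change of -0.05. The 5 tested genes of deiodinase turnover had a median of -0.20 and likewise none. That median was 0.03 without NCD replicate 1, -0.41 without NCD replicate 2, -0.11 and -0.12 without HFD replicates 1 and 2, and -0.06 with library size as a covariate. Among them Usp33, a deubiquitinase that returns DIO2 to activity, was at -0.52 (SE 0.29) and the ubiquitin ligase gene March6 at -0.08. The value of Usp33 was -0.18 without NCD replicate 1, -0.31 without HFD replicate 3 and -0.14 with library size as a covariate.

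Of the 13 receptor partners and corepressor subunits, 8 were higher and 5 lower, with a median of 0.02 that ranged from -0.05 without HFD replicate 3 to 0.13 without NCD replicate 2. Rxra, the retinoid X receptor alpha that pairs with both receptors, was the 1 among them with an unadjusted p under 0.05. It had 19.5, 17.8 and 17.9 CPM in NCD and 30.04, 25.0 and 28.8 CPM in HFD. Every HFD sample was above every NCD sample, with a log2 fold change of 0.60 (SE 0.21, unadjusted p = 0.0137, adjusted p = 0.999, edgeR). Ncor1, the corepressor that recruits histone deacetylases to the unliganded receptors, was at 0.47 (SE 0.27) and Tbl1x, a subunit of the same complex, at -0.07. The value of Ncor1 was 0.18 without HFD replicate 3, 0.72 without HFD replicate 2 and 0.15 with library size as a covariate. Of the 5 tested nuclear receptors and deacetylases that bind Hr, none had an unadjusted p under 0.05. Their median was 0.21, or 0.13 without HFD replicate 3, with Rora at 0.31 (SE 0.20; 0.16 without NCD replicate 1 and 0.18 with library size as a covariate) and Rorb at -0.04.

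Of the 14 tested genes described as raised by T3 in brain, 8 were higher and 6 lower, with a median of 0.03. That median had no stable direction, from -0.24 without HFD replicate 2 to 0.21 without NCD replicate 2, and was below 0 with each of the other 4 samples left out. Dbp, a clock-controlled transcription factor, had 59.6, 69.0 and 56.2 CPM in NCD and 92.2, 88.3 and 104.7 CPM in HFD. The diets did not overlap, and the log2 fold change was 0.62 (SE 0.19, unadjusted p = 0.00623, adjusted p = 0.999, edgeR). Mbp, a myelin gene that is also a marker of oligodendrocytes, had the highest CPM of the list and a log2 fold change of 0.00.

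The 10 tested genes of the axis from thyrotropin-releasing hormone (TRH) to thyrotropin (TSH) had a median of 0.16, with 9 higher and 1 lower. Trh, the hormone's precursor gene, had 44.6, 70.8 and 72.0 CPM in NCD and 94.0, 86.2 and 86.1 CPM in HFD. All HFD samples were above the NCD samples, with a log2 fold change of 0.51 (SE 0.22, unadjusted p = 0.0374, adjusted p = 0.999, edgeR), or 0.30 without NCD replicate 1. Pcsk1, one of the convertases that cleave the precursor, was lower in every HFD sample, with 125.8, 88.3 and 82.5 CPM in NCD and 65.8, 80.9 and 53.0 CPM in HFD. Its log2 fold change was -0.57 (SE 0.23, unadjusted p = 0.0295, adjusted p = 0.999, edgeR), or -0.33 with the total count as a covariate and -0.37 without NCD replicate 1. Cga, the alpha subunit of TSH, had 9.38, 4.17 and 14.9 CPM in NCD and 14.7, 10.6 and 47.9 CPM in HFD, so that HFD sample 3 alone was outside the NCD range, and its log2 fold change of 1.36 (SE 0.54, unadjusted p = 0.0259, adjusted p = 0.999, edgeR) was 0.43 without HFD replicate 3. Cpe and Pcsk2, the processing enzymes with the highest CPM of the list, were at 0.06 and 0.11.

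**Figure D4:**
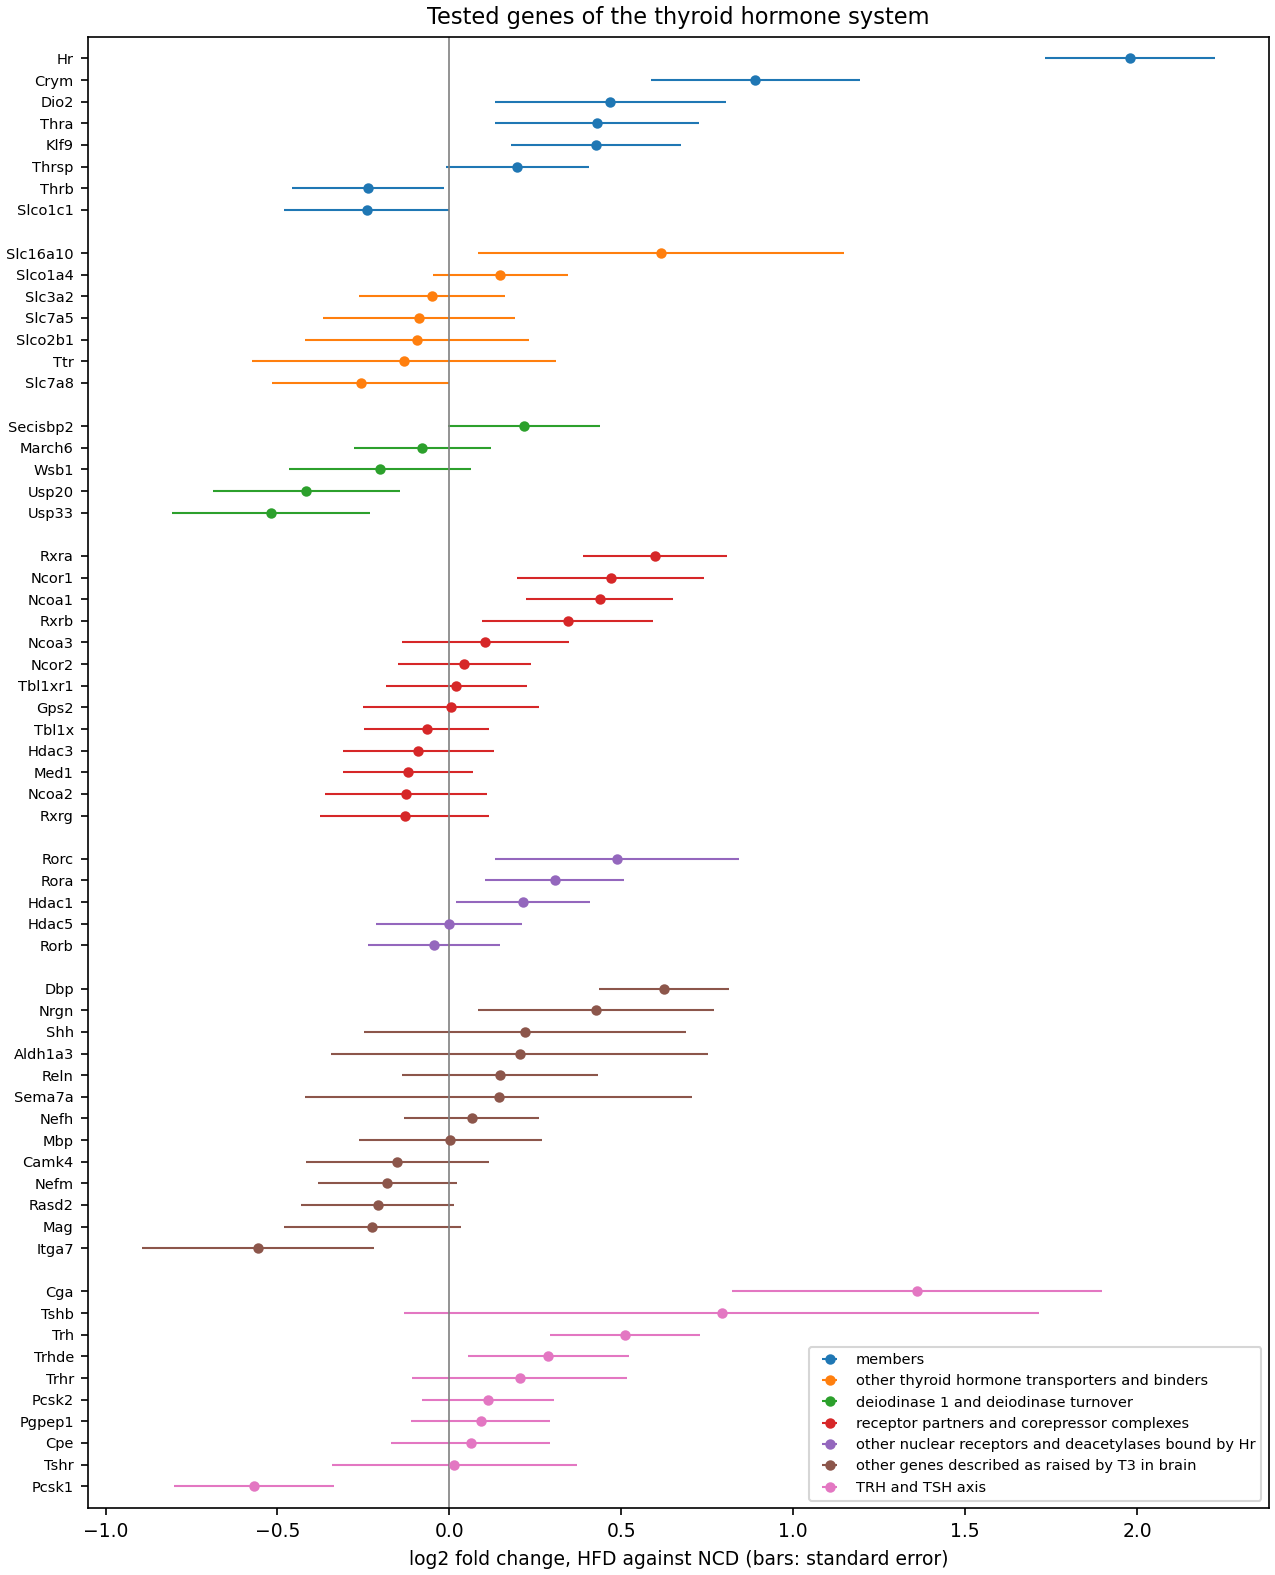
Log2 fold change (HFD against NCD, points; bars the standard error) of the 8 tested genes of the system and of tested genes of the 6 further lists, coloured by list. Hr is farthest to the right at 1.98, followed by Cga at 1.36 and Crym at 0.89, and every list has genes on both sides of 0.

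Cell markers were read beside these values, since in cut tissue fewer cells of a type and less RNA per cell cannot be told apart. Tanycytes, the ventricular cells that express Dio2, border the ARC, and all 7 of their markers had a log2 fold change above 0, with a median of 0.43 and 1 unadjusted p under 0.05, which 1.21% of all genes had as higher. The sum, Vim with the highest mean CPM, was 191, 154.6 and 238.8 CPM in NCD and 286.2, 161.2 and 406.9 CPM in HFD. HFD samples 1 and 3 were above the NCD samples, and HFD sample 2 was the lowest of its diet, as it was for Crym and Dio2. Hr was also lowest of its diet in HFD sample 2, at 25.4 CPM beside 25.6 in HFD sample 3 and 31.3 in HFD sample 1. The sum of the 5 markers of paraventricular and magnocellular neurons was lower on HFD. They summed to 2912, 5829 and 2566 CPM in NCD and 1335, 1409 and 1262 CPM in HFD, without overlap, most of it from Avp and Oxt, the 2 with an unadjusted p under 0.05 (1.09% of all genes had one as lower). Of the other 3, Sim1 was also lower without overlap, while Crh and Otp overlapped, with Otp at a log2 fold change of 0.36. Of the 9 markers of ARC neurons, 8 had a log2 fold change above 0, with a median of 0.42, and Cartpt and Tac2 had an unadjusted p under 0.05. Cartpt, which encodes the neuropeptide CART, had 395.3, 672.3 and 576.7 CPM in NCD and 902.8, 776.5 and 1077 CPM in HFD, without overlap. The 5 red blood cell markers were all lower on HFD, with a median of -0.50 and sums that overlapped, none with an unadjusted p under 0.05. Slc17a7, a gene of cortical and hippocampal neurons, had 0, 1 and 0 counts in NCD and 3, 4 and 59 in HFD, so HFD sample 3 stood apart; without it the log2 fold change of Hr was 2.03 and that of Crym 0.77. The summed astrocyte, endothelial, microglial and general neuron markers overlapped between the diets. Among their genes, endothelial Ly6c1 was higher (0.81) and Cldn5 lower (-0.48) without overlap, and astrocyte Gfap was at 0.88 with overlap, each with an unadjusted p under 0.05 and none past the adjusted threshold. Gfap was the 1 astrocyte marker of 6 with a log2 fold change above 0. The other 5 were below 0, and the median of the list was -0.13. Of the 6 endothelial markers, 3 were higher and 3 lower. Markers of the pars tuberalis and pituitary, Cga with the highest CPM, summed to 18.8, 7.22 and 34.4 CPM in NCD and 23.6, 15.2 and 64.1 CPM in HFD. The sum was highest in HFD sample 3, but it includes Cga, which gave 47.9 CPM of it there, so it is no separate measure from Cga. Prl, a defining marker of the pituitary, was at 0 in all 6 samples. The part of all these cells in the values of Hr, Crym, Dio2, Trh and Cga was not tested.

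**Figure D5:**
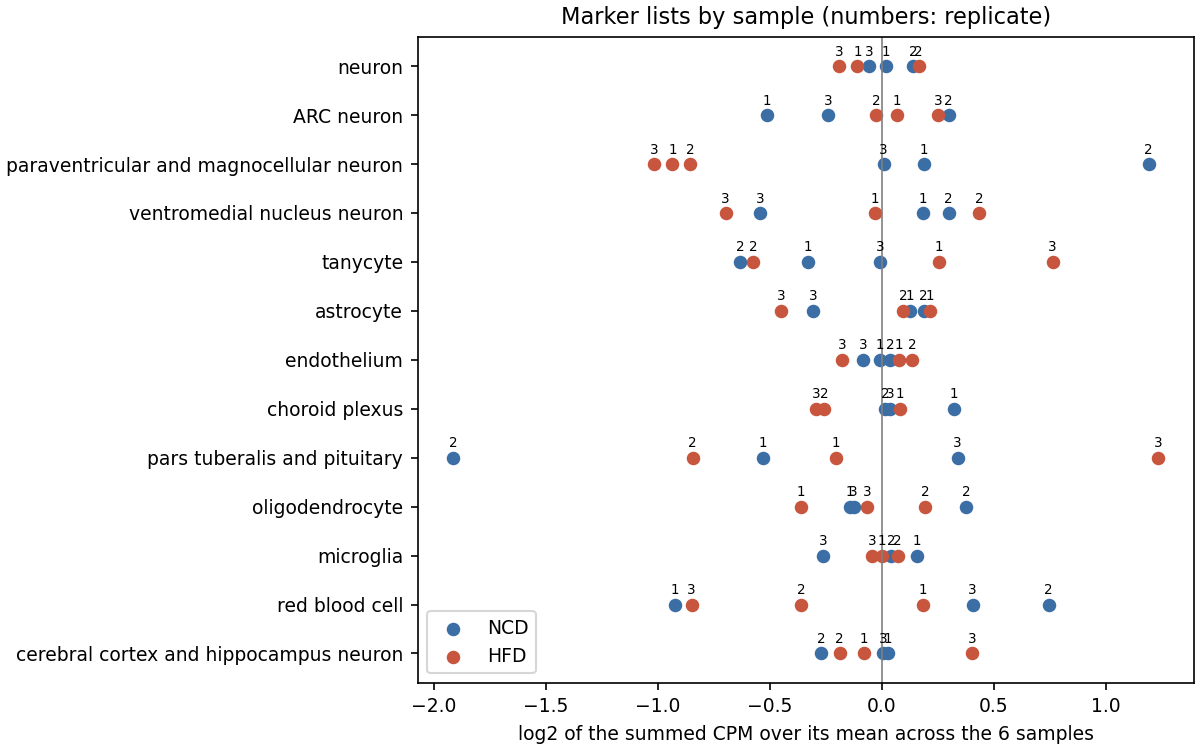
Summed CPM of each marker list as log2 of its ratio to the mean over the 6 samples (points, numbered by replicate; blue NCD, red HFD). The paraventricular and magnocellular list separates the diets, and the tanycyte list is highest in HFD samples 3 and 1, with HFD sample 2 among the NCD samples.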

How the data were processed

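RNA from 6 LCM samples of ARC was sequenced, 3 per diet. According to the methods, the authors compared reads with ribosomal sequences using bowtie2, aligned with HISAT2 and quantified with StringTie and RSEM; the labels give the build as mm10, the build of GRCm38. Versions, annotation release and strand setting were not given in the sources used here. The deposited table holds read counts per gene, not normalized by the authors, FPKM values that the authors computed per transcript length and mapped reads, and group means, fold changes, p-values and FDR of the authors' own comparison, which were not used. It holds no column of other samples.

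The 9 genes and all lists were chosen with earlier results of these data known. Identifiers were matched to GENCODE M21 (22267 of 22322). Genes were filtered with filterByExpr, scaled with TMM and tested with edgeR 4.0.16 (quasi-likelihood test, diet as the only term, Benjamini-Hochberg over the 14188 genes tested) in R 4.3.3. CPM are TMM-scaled, and log2 CPM used a prior count of 2. Fold changes are edgeR estimates. Promoter windows came from RefSeq (GRCm38.p6) and were held for 6 of the 9 genes; Hr, Thra and Crym had none in that table.

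Total counts per sample ranged from 5171381 to 15925648. No count columns of a diet were identical. Named in the text are the 9 genes, pathway genes with an unadjusted p under 0.05 or else the 2 with the highest CPM of each list, overlapping genes, tested neighbours of Hr within 250 kb, and the 5 genes most like Hr. Some genes of the lists entered the counts and medians but are not reported here. Nr1d1 shares exon bases with Thra, and Gm26512 with Dio2. Pomc, Agrp and Kiss1 were named as markers of the cut area, and Gm28040 as an overlapping gene. Tac2, Slc17a7, Oxt, Sim1, Crh, Otp, Ly6c1, Cldn5 and Gfap were named after their values were seen. Alternatives were DESeq2 1.42.0, RLE size factors, library totals alone, no filter, a mean of at least 50 counts, the replicate block, the total count as a covariate, limma 3.58.1 on log2(FPKM + 1) and log2(FPKM + 0.1) (mean FPKM 0.5 or more), and leaving out each sample in turn. The fits were tested on simulated data. Figures were drawn with matplotlib 3.10.9 in Python 3.11.15.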

Additional observations from a re-analysis of the deposited data

How the results depend on the processing

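Over 15 alternatives, all fitted to the samples by which Hr was chosen, Hr passed an adjusted p of 0.05 in 10. It did not pass with limma on either pseudocount, or without NCD replicate 2, HFD replicate 1 or HFD replicate 2. No other gene of the hormone system and no gene of the 6 further lists passed in any of the 15. All 7 tested genes besides Hr kept the sign of their log2 fold change. The ranges were -0.49 to -0.12 for Slco1c1, 0.21 to 0.83 for Dio2, 0.67 to 1.12 for Crym, 0.13 to 0.69 for Thra, -0.38 to -0.02 for Thrb, 0.19 to 0.70 for Klf9 and 0.07 to 0.31 for Thrsp. The count of genes past the threshold among all genes tested, 8 with edgeR, was 19 with DESeq2, 15 with no filter on low counts, 15 with the total count as a covariate and 5 with limma on either pseudocount. With 1 sample left out it was 1 to 16, with 1 each without NCD replicate 2, HFD replicate 1 or HFD replicate 2, 4 without HFD replicate 3 and 16 without NCD replicate 3. The cause was not tested. The log2 fold change of Hr was between 1.43, with limma on log2(FPKM + 1), and 2.13. The medians of the nuclear receptors and deacetylases that bind Hr and of the TRH to TSH axis stayed above 0 in all 15, while those of the other 4 lists took both signs.

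The replicate number as a block gave 17 genes past the threshold, none of them in the hormone lists apart from Hr, with the lowest adjusted p for Cga (0.129) and Crym (0.361). Same-numbered samples had deviations from their diet mean that were correlated at -0.01, 0.11 and 0.37. NCD samples 2 and 3 correlated best with the HFD sample of the same number, and NCD sample 1 with HFD sample 2 (0.31). These correlations do not settle whether the numbers pair the samples. The fit reported above had diet as its only term.

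With 3 samples per diet an exact permutation test of a single gene cannot give a p under 0.1. Depth limited Dio3, and counts of 42 to 103 lie behind the NCD level of Hr.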

Other observations

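The transcript length behind the deposited FPKM, taken as the count scaled to the library total and divided by FPKM, differed between samples for Thrb. It was 4.55, 5.34 and 3.26 kb in NCD and 5.47, 5.08 and 3.68 kb in HFD, with the shortest values in sample 3 of each diet, so it did not separate the diets. The ratio of the highest to the lowest sample was 1.68, and 602 of the 12049 genes with an FPKM of at least 1 in every sample had a larger one; the median over the 12049 was 1.06. The same ratio was 1.03 for Hr, 1.02 for Thra and 1.0 for Crym, Klf9 and Thrsp. Thrb has several promoters and transcripts of different length, and its order of samples in FPKM differed from that in CPM. HFD sample 3 had 14.9 FPKM of Thrb beside 8.34 in HFD sample 1, while their CPM were 53.2 and 45.4.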
